A study of Danio rerio with 8 samples.

Results

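Transcripts of 9 blood clotting genes were followed in sorted zebrafish endothelial cells: the fibrinogen chain genes fga, fgb and fgg, the clotting protease genes f2, f9b and f10, the fibrinolysis genes plg and cpb2, and the inhibitor gene serpinc1. They were taken by name from a table of 32520 Ensembl genes, each name gave 1 identifier, and all 9 had reads. For f9b the name table holds only F9 without a letter (ENSDARG00000029493) beside a separate identifier for f9a, so F9 was read as f9b. RNA was sequenced from cells of embryos at 3 days post fertilisation, 4 libraries from ddx21 mutants and 4 from embryos labelled as ddx21 siblings. The cells came from the double reporter line Tg(fli1a:nEGFP);Tg(5.2lyve1b:DsRed), in which the fli1a promoter drives a green protein in the nuclei of endothelium and a lyve1b promoter a red protein in veins and lymphatics, and cells positive for both were collected as venous and lymphatic endothelium. The labels do not name the ddx21 allele, the genotype of the siblings, or how many embryos gave each library, and nothing in them says that libraries of a group came from separate clutches or sorts. The p-values thus rest on how much these 8 libraries vary, which may partly be technical variation.

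Clotting ends when thrombin, the active form of the f2 product prothrombin, cuts fibrinogen into fibrin. Factor IX and factor X are vitamin K-dependent proteases that act before thrombin in the cascade, and antithrombin, the serpinc1 product, blocks these proteases. Plasmin, made from the plg product plasminogen, dissolves fibrin, and the carboxypeptidase encoded by cpb2 slows this by trimming fibrin. In vertebrates these proteins are made mainly by hepatocytes and secreted into plasma, so the genes are not markers of endothelium.

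The libraries held from 38459219 to 51173007 reads in genes, and from 18051 to 25329 genes with a read. Levels are given as CPM, a gene's reads relative to the total of its library, scaled with TMM, which corrects for library composition. The mutated gene ddx21 was present in every library, at 245, 364, 337 and 301 CPM in siblings 1 to 4 and 233, 266, 170 and 217 CPM in mutants 1 to 4, and the groups overlapped, so its level checks the labels only weakly. All 13 endothelial identity genes had reads in all 8 libraries, with sums of 3730 to 6790 CPM in siblings and 3100 to 6300 CPM in mutants. Among them lyve1b, the gene of the red reporter's promoter, measured 722 ± 77 and 553 ± 125 CPM (SD, n = 4 each). The venous and lymphatic genes stab2, FLT4 and PROX1 had log2 values of -0.37 (SE 0.2), -0.32 (SE 0.24) and -1 (SE 0.95), and FLI1 -0.22 (SE 0.34), all with overlap. Of the 13 identity genes, 12 had a log2 fold change below 0 (median -0.21, against 0.0 over all genes tested). In the mutant of 4 of 4 same-numbered pairs 4 were lower (8.42% of all tested). At an unadjusted p under 0.05 in edgeR, 0 were lower (1.67% of all tested) and 0 higher (1.33%). Fewest genes were detected in mutant 4, sibling 4 and mutant 1, and their quality weights in limma-voom were the lowest (0.486, 0.449 and 0.619). Of 12868 genes with a mean of 1 to 50 CPM, a range that holds all 9 clotting genes, 11.7% had 0 reads in sibling 4, 9.16% in mutant 1 and 12.0% in mutant 4, against 0.661% to 3.78% in the other 5 libraries. The members and the main lists are also given without these 3 libraries. Sibling 4 also carried exocrine pancreas transcripts at a summed 57200 CPM, where the other 7 libraries had 112 to 1320 CPM. The part of these differences between libraries in the results below was not tested beyond leaving libraries out.

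Most of the clotting genes were lower in the mutant libraries, and 6 of the 9 (fga, fgb, fgg, f9b, cpb2 and serpinc1) had every mutant library below every sibling library, as did 1.83% of the 18549 genes tested. The summed level of the members other than f10 averaged 145 ± 42.3 CPM over the siblings, against 15.9 ± 12.0 CPM over the mutants (SD, n = 4 each). Prothrombin and plasminogen transcripts were lower in the mutant of 3 of 4 same-numbered pairs, and f10 was higher in 3 of 4. No gene of the table passed edgeR's quasi-likelihood test with Benjamini-Hochberg adjustment (0 of 18549, or 0%, at an adjusted p under 0.05), so none of the differences below is called by it. At an unadjusted p under 0.05 there were 556 genes, and at an adjusted p under 0.05 DESeq2 called 62, limma-voom 0 and limma-trend 2. At an unadjusted p under 0.05, edgeR had fga, fgg, f9b, cpb2, plg and serpinc1 lower, 6 of 9, and 309 genes or 1.67% of all tested. No member was higher at that level (1.33% of all tested). Of the 9, 6 would have passed the filter on low counts on the siblings alone but not on the mutants alone. These were fga, fgb, fgg, f2, f9b and cpb2, and all but f2 were higher in every sibling than in any mutant. The members were also chosen with earlier results of these data known. The counts of members in this paragraph are therefore a description. In bulk samples, fewer cells of a type and less RNA per cell cannot be told apart.

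**Figure D1:**
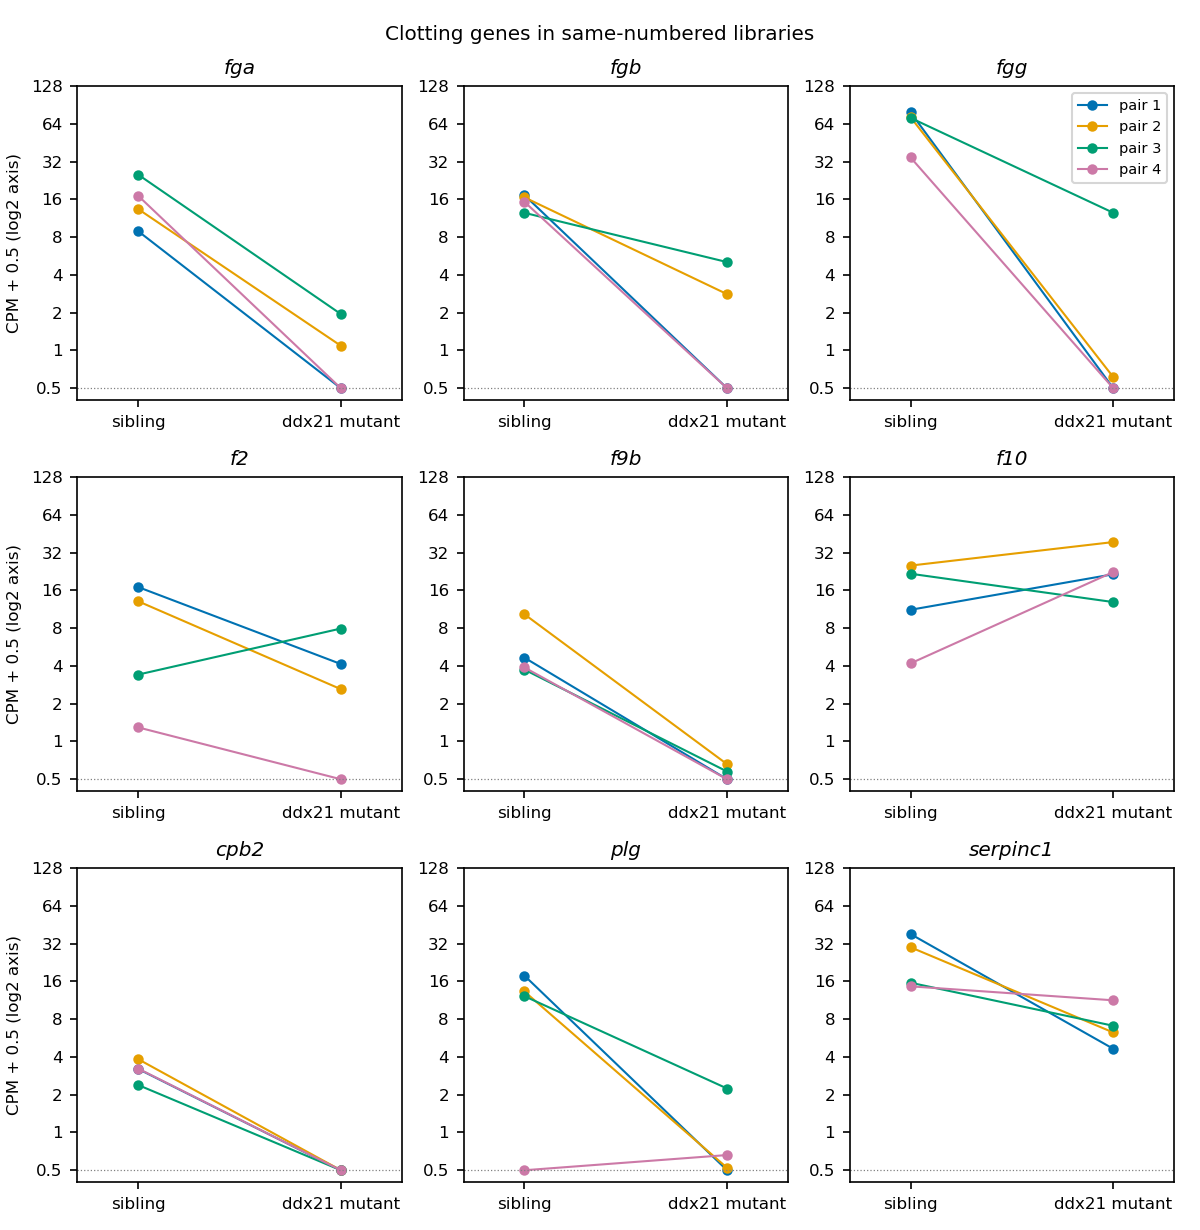
Level of each clotting gene (CPM + 0.5, log2 axis) in the 4 sibling and 4 ddx21 mutant libraries, with a line joining libraries of the same replicate number; the dotted line marks 0 CPM. In fga, fgb, fgg, f9b, cpb2 and serpinc1 all 4 lines go down, whereas f2 and plg have 1 rising line each and f10 has 3.

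The fibrinogen chains come from 3 genes, and the alpha, beta and gamma chains are assembled together in the secreting cell. The alpha chain gene fga (ENSDARG00000020741) measured 8.43, 12.9, 24.7 and 16.6 CPM in siblings 1 to 4. In mutants 1 to 4 it measured 0, 0.59, 1.45 and 0 CPM. Mutants 1 and 4 had no fga read, and even mutant 3, the highest of its group, lay below sibling 1, the lowest of the other. The means were 15.7 ± 6.91 and 0.51 ± 0.685 CPM (SD, n = 4 each), 30.7-fold apart. The log2 fold change was -4.93 (SE 1.49; edgeR unadjusted p = 0.008, adjusted p = 1.0). The exact permutation test of log2(CPM + 0.5) gave p = 0.029, two-sided, the smallest that 4 against 4 libraries allow.

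For fgb (ENSDARG00000008969), the beta chain gene, siblings 1 to 4 held 16.8, 16.1, 12.0 and 14.8 CPM, the tightest sibling group of the 9 genes, with an SD of 14.2% of the mean. Mutants 1 to 4 held 0, 2.31, 4.56 and 0 CPM. The groups did not overlap, and again mutants 1 and 4 were without a read while mutants 2 and 3 had 102 and 239 reads. Its mean was 8.69-fold higher in siblings (14.9 ± 2.11 against 1.72 ± 2.19 CPM, SD, n = 4 each). On the log2 scale the change was -3.12 (SE 1.53; edgeR unadjusted p = 0.069, adjusted p = 1.0), and the exact permutation p was 0.029.

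The gamma chain gene fgg (ENSDARG00000037281) measured 78.4, 71.7, 70.8 and 34.0 CPM in siblings and 0, 0.113, 12.0 and 0 CPM in mutants 1 to 4. Almost all mutant reads came from 1 library: mutant 3 had 629 reads, mutant 2 had 5, and mutants 1 and 4 had 0. With means of 63.7 ± 20.1 and 3.03 ± 5.98 CPM (SD, n = 4 each) the log2 fold change was -4.39 (SE 1.81; edgeR unadjusted p = 0.038, adjusted p = 1.0), and the exact permutation p was 0.029. It was -8.43 (SE 1.88; edgeR adjusted p = 0.65) with the replicate number as a block and -10.68 without mutant 3 (edgeR adjusted p = 0.052), so that this library sets the size.

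Summed over the 3 chains, fibrinogen transcripts amounted to 104, 101, 108 and 65.4 CPM in siblings 1 to 4 and to 0, 3.02, 18.0 and 0 CPM in mutants 1 to 4. Within pairs, sibling 3 exceeded mutant 3 by 17.1-fold for fga, 2.64-fold for fgb and 5.9-fold for fgg. In pair 2 the ratios were 21.8 for fga, 6.95 for fgb and 632 for fgg, the last resting on 5 mutant reads. Against a floor of 3 reads per library, siblings 1 and 4 were at least 117-fold and 309-fold higher than their mutants for fga, at least 234-fold and 275-fold for fgb, and at least 1090-fold and 633-fold for fgg. These bounds cover counting error only, not the spread between libraries. The ratio of reads between chains, which also depends on transcript length and is compared here only across libraries, varied as well. There were 4.66, 4.46, 5.88 and 2.3 fgg reads per fgb read in siblings 1 to 4 and 2.63 in mutant 3, but 0.049 in mutant 2. In the same way fgb reads per fga read ran from 0.486 in sibling 3 to 2.0 in sibling 1, and were 3.92 in mutant 2 and 3.14 in mutant 3. In the assembly GRCz12tu fgb and fga lie near each other on chromosome 1, with 1 protein-coding gene model between them, and fgg lies elsewhere on that chromosome.

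Of the proteases, f9b (ENSDARG00000029493), which encodes factor IX, measured 4.16, 9.83, 3.24 and 3.39 CPM in siblings and 0, 0.159, 0.0763 and 0 CPM in mutants 1 to 4. The mutant libraries together held 7 and 4 reads, in mutants 2 and 3, against 158 to 400 reads in each sibling. The log2 fold change was -6.4 (SE 1.61; edgeR unadjusted p = 0.0026, adjusted p = 1.0), with an exact permutation p of 0.029 and 4 of 4 pairs lower. In pairs 2 and 3 the sibling exceeded the mutant by 61.9-fold and 42.4-fold.

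Prothrombin transcripts of f2 (ENSDARG00000036041) spread widely within both groups, at 16.5, 12.6, 2.91 and 0.795 CPM in siblings and 3.64, 2.11, 7.44 and 0 CPM in mutants 1 to 4. Siblings 1 and 2 stood above all mutants, but siblings 3 and 4 lay inside the mutant range. In pairs 1 and 2 the sibling was 4.52-fold and 5.95-fold higher, and in pair 3 the mutant was the higher one, with a sibling to mutant ratio of 0.391. Mean levels of 8.18 ± 7.53 and 3.3 ± 3.14 CPM (SD, n = 4 each) gave a log2 fold change of -1.31 (SE 1.4; edgeR adjusted p = 1.0) and an exact permutation p of 0.4. The log2 fold change was -2.28 with the replicate block, -0.72 without sibling 1 and -2.09 without mutant 3.

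The factor X gene f10 (ENSDARG00000088581) was abundant in both groups and went the other way in most pairs. It measured 10.7, 24.7, 21.2 and 3.69 CPM in siblings 1 to 4, and 21.0, 38.3, 12.4 and 21.9 CPM in mutants 1 to 4. Mutants 1, 2 and 4 exceeded their siblings and mutant 3 did not, and the groups overlapped. Means of 15.1 ± 9.63 and 23.4 ± 10.8 CPM (SD, n = 4 each) corresponded to a log2 value of 0.63 (SE 0.56; edgeR adjusted p = 1.0; exact permutation p = 0.31), which was 0.32 without sibling 4 and 0.29 without mutant 2. No member other than f10 and serpinc1 was read in every library. In GRCz12tu the neighbours of f10 on chromosome 1 are factor VII genes on one side and prozb, a protein Z gene, on the other. All 3 identifiers named F7 had reads almost only in siblings 1 and 2, where they summed to 18.2 and 20.9 CPM. They summed to 0.102 CPM in sibling 3, 0.0227 CPM in mutant 2 and 0 elsewhere, and were too low in most libraries to be tested. The identifier named PROZ (ENSDARG00000076900) held 194, 295, 225 and 227 reads in siblings 1 to 4 and 0, 19, 0 and 181 in mutants 1 to 4 (log2 -2.53, SE 1.71, edgeR adjusted p = 1.0), without overlap.

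Of the genes that act on fibrin, cpb2 (ENSDARG00000037144) was the member with no read in any mutant library. Siblings 1 to 4 held 113, 136, 93 and 127 reads, or 2.71, 3.34, 1.89 and 2.73 CPM. The sibling mean of 2.67 ± 0.595 CPM (SD, n = 4) was at least 42.6-fold higher than the mean floor of 3 reads per mutant library, 0.0627 CPM. Its edgeR adjusted p of 0.77 was the lowest of the 9 genes (unadjusted p = 0.00081), and the exact permutation p was 0.029. A count of 0 limits the reads sampled and covers counting error only.

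Plasminogen transcripts of plg (ENSDARG00000023111) measured 17.3, 12.8, 11.7 and 0 CPM in siblings 1 to 4 and 0, 0.0227, 1.74 and 0.161 CPM in mutants 1 to 4. Siblings 1, 2 and 3 lay above every mutant, whereas sibling 4 had no plg read although it held 774 reads of fga. Pair 4 was therefore the exception, with 9 reads in its mutant. On the log2 scale the difference was -4.43 (SE 1.98; edgeR unadjusted p = 0.049, adjusted p = 1.0), and the exact permutation p was 0.14. Without mutant 3, which held 91 of the mutant reads, it was -7.3, and without sibling 4 it was -4.84.

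Antithrombin transcripts of serpinc1 (ENSDARG00000042684) measured 37.6, 29.4, 15.1 and 14.1 CPM in siblings and 4.14, 5.76, 6.58 and 10.8 CPM in mutants 1 to 4. Every library held at least 173 reads, so that this gene compares levels and not presence, and mutant 4 with 10.8 CPM came closest to sibling 4 with 14.1 CPM. Within pairs 1 to 4 the sibling was 9.09-fold, 5.1-fold, 2.3-fold and 1.31-fold higher. The means were 24.1 ± 11.4 and 6.82 ± 2.83 CPM (SD, n = 4 each), the log2 fold change was -1.82 (SE 0.46; edgeR unadjusted p = 0.0027, adjusted p = 1.0), and the exact permutation p was 0.029.

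**Figure D2:**
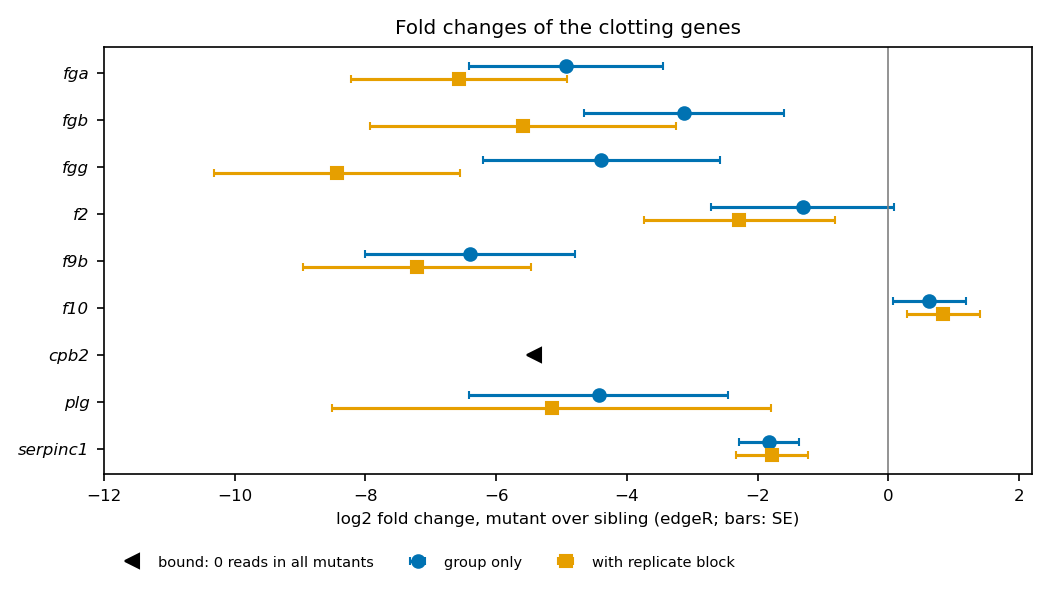
Log2 fold changes of mutant over sibling from edgeR with the group alone (circles) and with the replicate number as a block (squares). Bars are standard errors derived from the test statistic. The triangle for cpb2 is the bound against a floor of 3 reads per library. Of the 9 genes 8 lie below 0, f10 lies above it, and the block shifts fgg from -4.39 to -8.43.

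The median log2 fold change of the 9 genes was -4.39, also with cpb2 set at its bound, against 0.0 over all genes tested. All 9 were tested, but 7 of them would not have passed the filter (0.207 CPM in 4 libraries) on the mutants alone. Of these, 6 would have passed on the siblings alone, and plg passed through 3 siblings and mutant 3, so the median is a description. With the replicate block the median was -5.59 (all genes -0.04), and fga, fgb, fgg, f9b, cpb2 and serpinc1 were lower at an unadjusted p under 0.05 (edgeR with the block, 2.88% of all tested), and 0 members were higher (2.98%). Lower values in the mutant of 4 of 4 pairs were found for 6 members and for 8.42% of genes tested. With 4 pairs a two-sided exact paired p cannot go below 0.125. Without mutants 1 and 4 and sibling 4 the log2 fold changes were -3.9 for fga, -2.11 for fgb, -3.59 for fgg, -1.14 for f2, -5.57 for f9b, 0.44 for f10, -3.96 for plg and -2.13 for serpinc1. In these 5 libraries 7 members, all but f2 and f10, were lower at an unadjusted p under 0.05 in edgeR, as were 2.4% of the 21372 genes tested there, and cpb2 had no read in mutants 2 and 3. DESeq2's Wald test called fga (adjusted p = 0.03), f9b (adjusted p = 3.7e-05) and cpb2 (adjusted p = 1.7e-06) lower. They were the 3 members among 49 lower calls, or 0.264% of all tested genes. All 3 are among the 6 members that would pass the filter on the siblings alone but not on the mutants alone. These calls are therefore also a description. Limma-trend on the deposited log2 values called 0 members, and 0.00539% of genes lower.

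The members dropped out together in some libraries. Mutant 1 and mutant 4 each had 6 of the 9 genes at 0 reads, mutants 2 and 3 and sibling 4 had 1 each, and siblings 1 to 3 had none. In both mutant 1 and mutant 4 the missing set included fga, fgb, fgg, f9b and cpb2. The sixth was plg in mutant 1, which kept 152 reads of f2, and f2 in mutant 4, which kept 9 reads of plg. Of the genes with a mean of 1 to 50 CPM, 9.16% were at 0 in mutant 1, 12.0% in mutant 4 and 11.7% in sibling 4. Of the members, sibling 4 lacked plg alone. The filter on low counts kept f9b and cpb2 through the 4 siblings alone, so reads in sibling 4 were a condition for testing them. The part of library differences in these zeros was not tested.

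Other genes of clotting and fibrinolysis, not all of them particular to the liver (f8, f13a1b and pros1 among these), did not all follow the members. Of 16 tested, 12 had a log2 fold change below 0, with a median of -1.11. At an unadjusted p under 0.05 in edgeR 1 gene was lower (1.67% of all genes tested) and 0 were higher (1.33%). The median was -0.62 without sibling 4, -0.69 without mutant 1, -0.68 without mutant 2, -1.7 without mutant 4 and -1.21 without mutants 1 and 4 and sibling 4. That gene was serping1, the inhibitor of complement C1s and plasma kallikrein, at 0.913, 1.45, 0.855 and 10.7 CPM in siblings and 0, 0, 0 and 0.0896 CPM in mutants 1 to 4 (log2 -7.06, SE 2.02, edgeR unadjusted p = 0.0058, adjusted p = 1.0). Sibling 4 stood far above the other siblings, and all mutants lay below all siblings. Kininogen transcripts (kng1) followed with 15.4, 28.2, 4.11 and 13.2 CPM in siblings and 3.95, 0, 3.87 and 0.0179 CPM in mutants (log2 -2.96, SE 1.51, edgeR adjusted p = 1.0). SERPIND1, which encodes the thrombin inhibitor heparin cofactor II, averaged 7.55 ± 4.8 CPM over the siblings and 0.897 ± 1.55 CPM over the mutants (SD, n = 4 each), with overlap.

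Some genes of the same list were read in all 8 libraries. The cofactor gene f5, whose protein works with factor X, measured 33.2, 31.2, 17.3 and 14.3 CPM in siblings and 23.9, 36.1, 38.6 and 40.5 CPM in mutants (log2 0.53, SE 0.34, edgeR adjusted p = 1.0), and like f10 was higher in 3 of 4 pairs. For pros1, which encodes the anticoagulant protein S, the means were 140 ± 55.9 and 125 ± 34.5 CPM (SD, n = 4 each; log2 -0.17, SE 0.32). For serpina10a, a gene of the protein Z-dependent inhibitor family, they were 121 ± 33 and 89.4 ± 39.9 CPM (SD, n = 4 each; log2 -0.44, SE 0.34). Genes of this list that were too low to test numbered 9, the F7 identifiers among them, and the number of these with 0 reads was 1, 1, 6 and 7 in siblings 1 to 4 and 8, 4, 5 and 8 in mutants 1 to 4. With the replicate block the median of the 16 was -3.7.

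**Figure D3:**
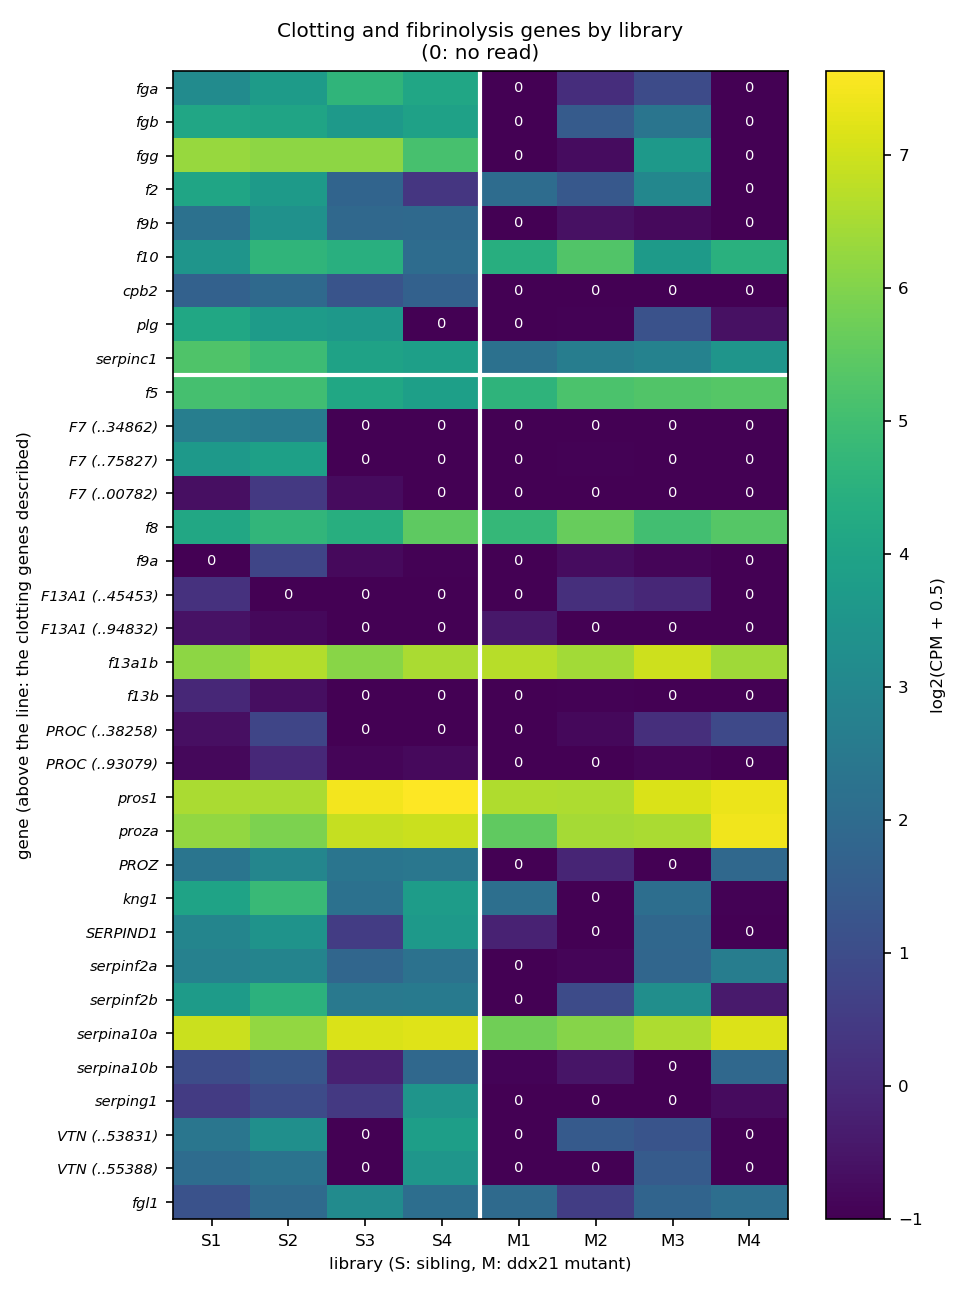
Levels of the 9 clotting genes (above the white line) and 25 further clotting and fibrinolysis identifiers in each library, as log2(CPM + 0.5). A 0 marks a library with no read. Mutants 1 and 4 hold most of the zeros of the 9 genes, while rows such as f5, f8, f13a1b, pros1 and serpina10a are filled in all 8 libraries.

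A further list held genes of the vitamin K cycle and of the processing and export of clotting factors. Of 10 tested, 0 had an unadjusted p under 0.05 in edgeR in either direction, and their median log2 fold change was 0.12. Of all genes tested 1.67% were lower and 1.33% higher at that level, so 0 of 10 is near these shares. GGCX, the carboxylase that modifies prothrombin and factors IX and X, measured 13.6 ± 3.02 and 14.7 ± 7.71 CPM (SD, n = 4 each; log2 0.12, SE 0.41). The lowest p belonged to pcsk5a, a proprotein convertase gene read at 0.865, 1.28, 0 and 5.11 CPM in siblings and 0.024, 0.0681, 0.381 and 0 CPM in mutants (log2 -3.9, SE 2.05, edgeR adjusted p = 1.0). The proprotein convertase FURIN is the name of 2 identifiers, ENSDARG00000062909 with a log2 value of 0.42 (SE 0.27) and ENSDARG00000070971 with -0.64 (SE 0.57). VKORC1L1, a vitamin K reductase gene, averaged 40.9 ± 10.6 and 50.4 ± 12.6 CPM, and MCFD2, which helps export factors V and VIII, 48.3 ± 13.8 and 55.9 ± 9.86 CPM (SD, n = 4 each).

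Regulators of clotting that sit on cells, many of them made by endothelium, had a median log2 fold change of -0.07 over 25 tested. At an unadjusted p under 0.05 in edgeR 1 was higher (1.33% of all genes tested) and 0 were lower (1.67%). The higher one was ANXA2 (ENSDARG00000003216), which encodes annexin A2, a surface receptor for plasminogen and its activator in mammals. It measured 831, 1380, 691 and 820 CPM in siblings and 1910, 2450, 1050 and 1010 CPM in mutants 1 to 4, and was higher in the mutant of 4 of 4 pairs, as were 8% of genes tested. The log2 fold change was 0.79 (SE 0.34; edgeR adjusted p = 1.0), and 0.73 (SE 0.16; edgeR unadjusted p = 0.003) with the replicate block. Its partner s100a10b measured 1140, 1270, 649 and 611 CPM in siblings and 2390, 2310, 910 and 637 CPM in mutants (log2 0.77, SE 0.45, edgeR adjusted p = 1.0). Both partners were highest in mutants 1 and 2. The thrombin inhibitor gene SERPINE2 averaged 281 ± 65.5 and 231 ± 35.8 CPM, and f3b, a gene of tissue factor, 22.8 ± 3.26 and 16.9 ± 8.64 CPM (SD, n = 4 each), both with overlap. Von Willebrand factor transcripts (vwf) measured 35.9 ± 17.7 and 38.8 ± 16.5 CPM (SD, n = 4 each). Thrombocytes, the fish counterpart of platelets, could also be let through the gate. For their 10 markers the median was -0.29 on the log2 scale, with 8 below 0. At an unadjusted p under 0.05 in edgeR 1 was lower (1.67% of all genes tested) and 0 were higher (1.33%). That gene was NFE2, a transcription factor, at 92.5 ± 13.4 and 63 ± 16.7 CPM (SD, n = 4 each, log2 -0.55, SE 0.23, edgeR unadjusted p = 0.036). The integrin gene itga2b averaged 236 ± 73.8 and 227 ± 43.4 CPM (SD, n = 4 each). In the mutant of 4 of 4 pairs 3 markers were lower (8.42% of all genes tested). GFI1B, a transcription factor gene, was the 1 marker of the list with all mutants below all siblings, as were 1.83% of genes tested. It measured 3.15, 4.01, 9.28 and 6.08 CPM in siblings and 0.263, 2, 2.59 and 1.06 CPM in mutants (log2 -1.93, SE 0.91, edgeR adjusted p = 1.0). FERMT3, an integrin activator gene, is the name of 2 identifiers. The first, ENSDARG00000030938, averaged 35.2 ± 19.8 and 18 ± 10.6 CPM, and ENSDARG00000079267 averaged 2.18 ± 2.71 and 2.65 ± 2.9 CPM (SD, n = 4 each). For mpl, the thrombopoietin receptor gene, the means were 36.2 ± 8.4 and 29.4 ± 5.22 CPM (SD, n = 4 each). The part of thrombocyte RNA in the results was not tested.

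Markers of hepatocytes outside clotting were measured in the same libraries and were lower in mutants too. Of 26 tested, 25 had a log2 fold change below 0 (median -2.96). In edgeR, 18 were lower (1.67% of all genes tested) and 0 higher (1.33%) at an unadjusted p under 0.05. For 17 the groups did not overlap, with mutants lower (1.83% of all genes tested). The list was chosen with earlier results of these data known. A gene could also pass the filter on low counts through the siblings alone, so these counts are a description. RBP4, a retinol carrier gene that supplied much of the list's reads, was the 1 gene above 0, at 1250, 2270, 344 and 129 CPM in siblings and 1550, 2550, 487 and 150 CPM in mutants. Without it, a choice made after its values were seen, the list summed to 2860, 3660, 1010 and 1740 CPM in siblings and 207, 294, 438 and 286 CPM in mutants. The defining marker fabp10a, the liver fatty acid binding protein gene, was not at 0 in any library, with 81.9, 64.3, 25.5 and 37.1 CPM in siblings and 1.01, 8.39, 9.23 and 6.36 CPM in mutants. The iron carrier gene tfa measured 758, 967, 87 and 342 CPM in siblings and 15.3, 14.7, 57.4 and 47 CPM in mutants (log2 -4, SE 0.78), so that these groups did not overlap either. The carboxylesterase gene ces2a had the lowest p of the list, at 245, 273, 60 and 164 CPM in siblings and 1.8, 10.4, 12.9 and 3.69 CPM in mutants (log2 -4.69, SE 0.71, edgeR adjusted p = 0.42). The apolipoprotein genes apoa1b and apoa2 and the protease inhibitor gene serpina1l had log2 values of -2.9 (SE 0.45), -3.14 (SE 0.65) and -2.8 (SE 0.45), each without overlap. Of the 30 hepatocyte identifiers, 0, 0, 2 and 5 had no read in siblings 1 to 4 and 11, 3, 4 and 11 in mutants 1 to 4, so that mutants 2 and 3 lay within the sibling range. Without mutants 1 and 4 and sibling 4 the list's median was -2.86. The part of liver RNA in the differences of the clotting genes was not tested.

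Marker lists of other tissues near the liver differed less evenly. The part of RNA from these tissues in the results was not tested. Yolk syncytial layer genes summed to 150 to 425 CPM in siblings and 32.7 to 162 CPM in mutants. At an unadjusted p under 0.05 in edgeR 3 of 6 tested were lower (1.67% of all genes tested). These were afp4 (ENSDARG00000095863) at 39 ± 18.6 and 10.1 ± 4.65 CPM, apoa4b.1 at 155 ± 54.5 and 45.9 ± 34.6 CPM and apoa4b.2 at 53.8 ± 40.2 and 15.6 ± 10.9 CPM (SD, n = 4 each). DGAT2, a triglyceride synthesis gene, had a log2 value of -3.62 (SE 2.28) with overlap. Exocrine pancreas markers had 11 of 13 tested lower at that level (1.67% of all genes tested), with 1 of 13, amy2a, free of overlap (1.83% of all). In sibling 4 amy2a, ela2l, ela3l, ela2, prss59.2 and CPA1 (ENSDARG00000021339) measured 129, 6470, 2070, 8900, 13700 and 10200 CPM. The other identifier named CPA1 (ENSDARG00000030915) measured 457 CPM there. The median log2 fold change of the list, -4.65, was -0.64 without sibling 4 and -2.1 without mutants 1 and 4 and sibling 4. Of the transcription factors of the liver 7 were tested, with a median of -0.14. At an unadjusted p under 0.05 in edgeR, 0 were lower and 0 higher, near the shares of all genes tested (1.67% and 1.33%). The median ran from -0.77 to 0.48 between settings, 0.48 without sibling 2. ONECUT1, a hepatocyte and pancreas regulator, was lower in 4 of 4 pairs, as were 8.42% of genes tested. It measured 12, 4.89, 1.53 and 4.21 CPM in siblings and 2.11, 0.681, 0.591 and 0 CPM in mutants. Its groups overlapped (log2 -2.74, SE 1.41, edgeR adjusted p = 1.0). FOXA2 averaged 3.39 ± 3.56 and 6.32 ± 5.54 CPM and CEBPB 851 ± 466 and 848 ± 387 CPM (SD, n = 4 each). CEBPA measured 76.2 ± 23.2 and 99.5 ± 38.9 CPM and NR5A2 74.8 ± 10.8 and 66.9 ± 17.3 CPM (SD, n = 4 each). The hepatocyte regulator HNF4A was too low to test, with 0, 82, 118 and 0 reads in siblings and 1, 1, 178 and 0 in mutants 1 to 4.

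**Figure D4:**
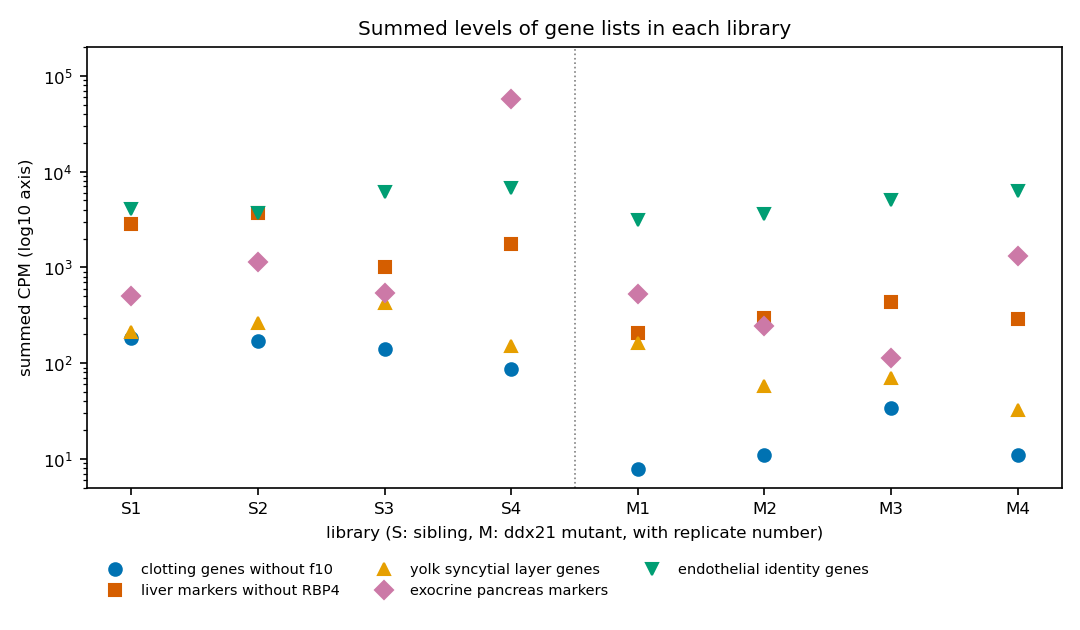
Summed CPM (log10 axis) of 5 gene lists in each library. The clotting genes without f10 sum to 86.5 to 182 CPM in siblings and 7.78 to 33.8 CPM in mutants, liver markers without RBP4 to 1010 to 3660 and 207 to 438 CPM, and endothelial identity genes overlap between the groups.

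The genes whose pattern over the 8 libraries was most like that of the 9, by Pearson r with the mean of their standardised log2(CPM + 0.5), were picked from 11347 others averaging 5 CPM or more. The first was GDA, a guanine deaminase gene (r = 0.96), at 15.1 ± 7.58 CPM over siblings and 1.47 ± 2.5 CPM over mutants (SD, n = 4 each). Next came cfb, a complement factor B gene (r = 0.94), at 10.3 ± 3.74 and 0.0908 ± 0.182 CPM (SD, n = 4 each). Further ones were REST and RPL22L1 (0.93 each), and NFE2, ces2a, ces3, PUS10 and retsat.2 (0.92 each), and RPL3 (0.91). All points share the same 8 libraries, and these values are a description. Each member is itself part of the shared profile, which raises its own r, so these values cannot be set against those of the outside genes. They were 0.94 for f9b, 0.93 for fgg, 0.9 for fgb, cpb2 and plg, 0.89 for fga and 0.87 for serpinc1. For f2 the value was 0.66, and for f10 it was -0.18.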

How the data were processed

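The 8 RNA sequencing libraries are covered by 2 tables. The authors deposited raw counts per Ensembl gene, which are whole numbers. Per the submitters' processing notes FastQC, Subread 2.0.0, featureCounts and edgeR were used with the build GRCz11; for strand setting, annotation release and filters the sources used here say nothing, so reads of overlapping, antisense or near-identical genes may be split. The second deposited table, named as batch-corrected log2 CPM, equalled log2(CPM + 1) of the counts in all 260160 values (tolerance 1e-09) and served as an alternative.

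Sample titles gave the group and the replicate number. Counts were filtered (filterByExpr, minimum count 10, minimum total 15; 18549 genes kept), scaled by TMM and fitted with edgeR 4.0.16 (robust quasi-likelihood, group only) in R 4.3.3, with Benjamini-Hochberg adjustment over all tested genes; the fit was tested on simulated data. The SE of an edgeR log2 fold change was taken as its absolute size over the square root of the test's F statistic. It thus restates the test and is no separate measure of precision. For the 9 members, log2(CPM + 0.5) was also compared by exact permutation over the 70 regroupings (scipy 1.17.1), two-sided and unadjusted. Alternatives were a replicate block, DESeq2 1.42.0, limma 3.58.1, other scalings, no filter, other pseudocounts and left-out libraries. Same-numbered libraries deviated together (correlation of deviations from the group means 0.141, 0.227, 0.107 and 0.272 for pairs 1 to 4), so the numbers were taken to pair them; sibling 1 correlated slightly more with mutant 2 (0.153), and sibling 2 with mutant 1 at 0.0995. No 2 libraries of a group agreed within sampling noise (chi-square over its degrees of freedom, 136 to 945), and the median trended dispersion was 0.61: at this depth the spread between libraries limits precision. The labels give no batch.

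Names came from a table with symbols for 29201 identifiers, with human-style names and RefSeq synonyms (GRCz12tu) where a name was missing. Coordinates of that assembly served only to order neighbouring genes on a chromosome. The members and lists were chosen with earlier results of these data known. Named genes were the members, ddx21, in each list the 4 with the smallest p and the 2 with the highest mean, and the 10 most alike; further ones (PROZ, F7, GGCX, vwf, fabp10a, HNF4A and those singled out in captions) were named after their values were seen. Transcript lengths were not used, so levels are compared within a gene.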

Additional observations from a re-analysis of the deposited data

Results flagged for a closer look

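In groups of 4, a library was taken to stand apart when its gap to the nearest other exceeded Dixon's 95% critical share of the group's range. For independent, normally distributed values chance gives this in about 1 in 20 groups. Of the 17 groups with a range (9 genes in siblings and in mutants, without the cpb2 mutants at 0 throughout) 3 held one. These CPM values include libraries at or near 0, and all groups share the same 8 libraries, so that rate need not apply to them. For fgg the gap of mutant 3 at 12.0 CPM made up 0.991 of the mutant range. For plg mutant 3, at 1.74 CPM, gave 0.907. For f9b sibling 2, at 9.83 CPM, gave 0.86 of the sibling range.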

How the results depend on the processing

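Across 17 alternatives, 153 values of the members' log2 fold changes kept their direction. For the 6 members whose groups do not overlap, leaving libraries out could hardly reverse it. Of the 153, 150 also kept their side of the threshold, an adjusted p of 0.05. No member was called in the main fit, so these 150 stayed uncalled. The other 3 are the DESeq2 calls of fga, f9b and cpb2. The count of genes called, 0 in the main analysis, was 62 with DESeq2, 1 with no filter on low counts and 2 with limma-trend on the deposited log2 values (1 of them ces2a, lower in mutants), and 0 without each library in turn. At an unadjusted p under 0.05 the count of 556 became 1086 with the replicate block, 1041 with the block and without pair 4 (an alternative chosen after seeing the data), 1611 with no filter, 860 with limma-voom and 850 with limma-trend; without single libraries it ran from 530 to 808. The cause was not tested. Of the members, 6 were lower at that level, 4 with no filter, and 4 to 7 without single libraries: 4 without sibling 1, sibling 2, sibling 3, mutant 1 or mutant 2 and 7 without mutant 3. Of all genes tested, 309 of 18549 were lower at that level in the main fit and 1207 of 29097 with no filter. Without siblings 1, 2 and 3 in turn they were 290 of 19053, 292 of 19149 and 310 of 19637. Without mutants 1, 2 and 3 in turn they were 383 of 19885, 565 of 19571 and 544 of 19452. The replicate block gave no adjusted call either; at the unadjusted level fgb came below the threshold and plg went above it. The log2 fold change of fgg ran from -10.68 without mutant 3 to -3.59 without mutants 1 and 4 and sibling 4. With limma-trend f9b was at -2.42, on a log2(CPM + 1) scale that shrinks changes of low genes. Medians crossed 0 between settings for cell-bound regulators (-0.08 to 0.1) and genes of the vitamin K cycle, processing and export (-0.08 to 0.17). They also did for liver transcription factors (-0.77 to 0.48) and endothelial identity (-0.33 to 0.02). With 0.1 or 2 CPM added in place of 0.5, f2, f10 and plg stayed above an exact permutation p of 0.05; the groups of the other 6 members do not overlap, which fixes their p. A count of 0 does not tell absence from a level under 3 reads per library.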
